A study of Mus musculus with 5 samples.

Results

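The genes described are 10 that low oxygen induces in many cell types and that lie outside glycolysis: Egln1, Egln3, Ankrd37, Ndufa4l2, Pdk1, Bnip3, Ddit4, Car9, Vegfa and Adm. They were taken by symbol, with every probe set annotated to that symbol alone, which gave 17 of the 45101 probe sets on the array and 10 of the 18193 genes with a probe set of their own. Primary chondrocytes, the cells that make cartilage, were taken from the rib cage of FVB embryos on day 18.5 of mouse gestation and grown on gelatin-coated dishes with ascorbic acid, 10 mM beta-glycerophosphate and 10% fetal bovine serum, with fresh medium every second day. There were 5 arrays, 1 each for cells harvested after 2, 6, 9, 12 and 15 days, so the comparison was by time in culture, with no second genotype or treatment. The labels give no oxygen tension and no interval between the last change of medium and harvest, and all 5 groups are cultures of primary rib cells rather than of an established line. Values are probe-set intensities on a linear scale, the brightness of the spots that report a transcript, and every array had the same trimmed mean as deposited. With 1 array per day there was no replicate error for any value, and no p-value can be given for a difference between days.

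When oxygen is plentiful, prolyl hydroxylases mark the alpha subunits of the hypoxia-inducible factors (HIFs), and the ubiquitin ligase subunit VHL then targets them for breakdown. When oxygen is scarce, the alpha subunits persist, pair with ARNT and bind short sequences in the promoters and enhancers of genes that lower oxygen use, adjust pH and recruit vessels. Growth cartilage has no vessels of its own, and chondrocytes in the fetal growth plate need HIF-1 alpha to survive.

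The 10 genes moved little or in mixed directions until day 12, apart from Adm, which was higher from day 6, and Ndufa4l2, which was higher on day 12, and all had far higher values on day 15. Each of the 17 probe sets had its highest value on day 15 and exceeded day 12 there by a factor of 2 or more. Day 15 was the highest day in 10 of 10 genes, against 22.4% of all genes measured. Measured by the brightest probe set, day 15 was at least 2-fold above each of the other 4 days in 10 of 10 genes, a pattern shown by 1.15% of all genes measured. The differences at day 15 against day 12 ran from 2.44-fold for Ddit4 to 31.9-fold for Ndufa4l2. Of the 11075 genes measured, Ndufa4l2 ranked 1st, Egln3 2nd and Ankrd37 4th for that difference. All of this rests on the single day 15 array. Ankrd37 and Car9 also passed the intensity filter for genes measured through that day alone. The 10 genes were chosen with earlier results of these data known, so these counts and ranks are a description and not a test.

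**Figure D1:**
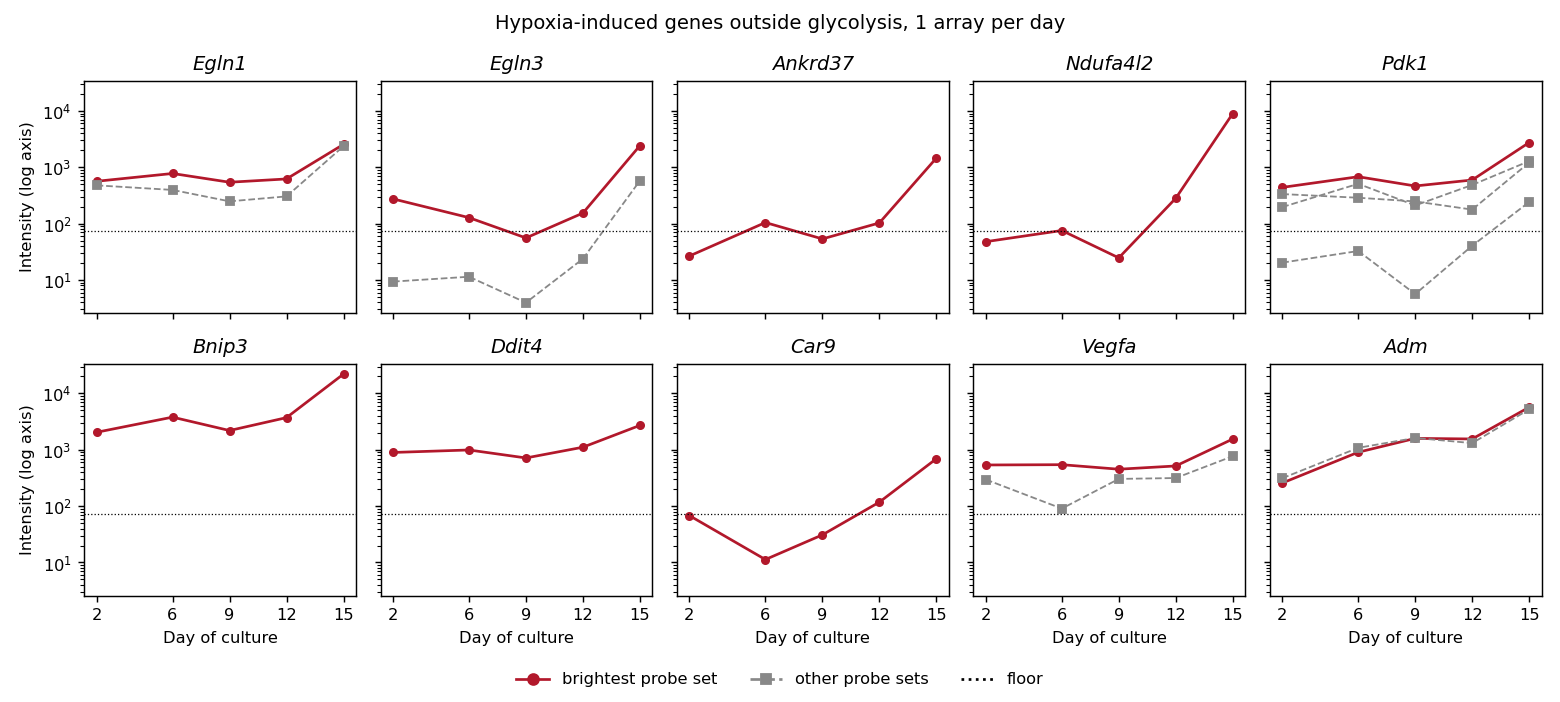
Intensity on a log axis (vertical) by day of culture (horizontal) for each of the 10 genes, with the brightest probe set in red, other probe sets in grey and the floor of 73.1 dotted. Each point is 1 array. All 17 probe sets have their highest value on day 15, and Ndufa4l2 has 9013 there against 283 on day 12.

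The letters that HIFs bind, ACGTG or GCGTG on one strand and so CACGT or CACGC on the other, were searched in the 250 bases before each annotated start in the RefSeq promoter windows of build GRCm38.p6. The table held windows for 9 of the 10 genes and none for Ndufa4l2. There were 11 windows in all, since Vegfa and Pdk1 each had a second start inside the gene, downstream of their first. At the start farthest upstream, at least 1 match lay in 8 of the 9 genes and at least 2 in 5, against 38.6% and 16.8% of all 27025 genes with a window. Vegfa had 0 matches there and 2 in the window of its downstream start, so these 2 lie within the gene. Pdk1 had 1 at its first start and 0 at its second. These letters include the palindrome CACGTG, which counts on both strands, and a match is a description of the sequence and not evidence of binding. The 5 windows below belong to genes with large differences or with well-known roles, and lie at chr12:54203875-54204124 (minus strand), chr8:45999851-46000100 (minus strand), chr7:138909507-138909756 (minus strand), chr4:43506776-43507025 (plus strand) and chr7:110627407-110627656 (plus strand). Each reads 5′ to 3′ along the gene and ends 1 base before its start, with matches in capitals and overlapping matches as a single run.
Egln3: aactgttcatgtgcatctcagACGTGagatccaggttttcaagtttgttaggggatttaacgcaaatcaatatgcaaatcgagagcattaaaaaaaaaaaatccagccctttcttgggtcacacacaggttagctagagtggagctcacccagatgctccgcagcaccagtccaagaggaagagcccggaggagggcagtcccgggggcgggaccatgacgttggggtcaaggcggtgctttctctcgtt
Ankrd37: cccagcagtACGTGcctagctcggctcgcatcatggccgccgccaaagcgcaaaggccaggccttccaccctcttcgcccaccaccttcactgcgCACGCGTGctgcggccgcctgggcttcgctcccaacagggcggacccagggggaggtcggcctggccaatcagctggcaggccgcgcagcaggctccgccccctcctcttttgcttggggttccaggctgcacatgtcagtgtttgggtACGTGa
Bnip3: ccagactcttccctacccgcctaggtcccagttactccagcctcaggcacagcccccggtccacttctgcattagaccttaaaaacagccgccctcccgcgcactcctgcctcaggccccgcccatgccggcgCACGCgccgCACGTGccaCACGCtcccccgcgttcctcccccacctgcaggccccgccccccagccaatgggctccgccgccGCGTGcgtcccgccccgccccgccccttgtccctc
Car9: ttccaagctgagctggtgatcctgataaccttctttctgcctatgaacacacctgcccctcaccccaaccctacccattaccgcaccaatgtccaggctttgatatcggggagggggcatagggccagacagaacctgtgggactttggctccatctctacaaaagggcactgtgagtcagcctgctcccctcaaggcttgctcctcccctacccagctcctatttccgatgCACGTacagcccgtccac
Adm: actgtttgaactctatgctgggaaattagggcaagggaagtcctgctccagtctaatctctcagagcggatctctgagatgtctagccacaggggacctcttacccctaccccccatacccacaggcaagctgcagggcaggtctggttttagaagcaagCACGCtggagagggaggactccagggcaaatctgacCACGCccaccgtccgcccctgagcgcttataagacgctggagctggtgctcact
The single Car9 match began 18 bases before the start, and the nearest Ankrd37 match 6 bases before it. Bnip3 had 5 matches, of which a pair is the palindrome read on both strands, and the only Egln3 match lay 229 bases before the start.

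Among the oxygen sensors, Egln1 and Egln3 encode prolyl hydroxylases that mark HIF alpha subunits and are themselves HIF targets. Egln3 had intensities of 275, 128, 55.8, 154 and 2427 on days 2, 6, 9, 12 and 15. Day 15 was 15.7-fold above day 12 and 8.82-fold above day 2. Its lowest day was day 9, below the floor of 73.1 to which lower values were raised for folds and log2 differences. A dimmer Egln3 probe set had 9.36, 11.4, 3.96, 23.8 and 579 on the same days, so it was above the floor on day 15 alone, at least 7.92-fold above every other day. Egln1 had 565, 777, 544, 622 and 2554, varying 1.43-fold over days 2 to 12 and standing 4.11-fold higher at day 15 than at day 12. The second Egln1 probe set had 479, 397, 249, 305 and 2369.9, which was 7.78-fold higher at day 15 than at day 12. Both probe sets of Egln1 put day 15 above all earlier days, and they differed in where days 2 and 6 stood to each other. Ankrd37, an ankyrin repeat gene known as a HIF target, had 26.7, 105, 53.6, 103 and 1459.6. Day 15 was 14.2-fold above day 12 and at least 19.97-fold above day 2, when Ankrd37 was below the floor.

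The genes that act on mitochondria had their highest values on day 15 as well. Ndufa4l2, a relative of the cytochrome c oxidase subunit gene Ndufa4 whose product lowers respiration in low oxygen, had 47.9, 75.6, 24.7, 283 and 9013. It was below the floor on days 2 and 9 and barely above it on day 6. At day 12 it was at least 3.87-fold higher than at day 2, so it was already up before the last step, and at day 15 it was 31.9-fold higher again than at day 12. Bnip3, which encodes a receptor on the mitochondrial outer membrane for removal of mitochondria by autophagy, had 2046, 3797, 2196, 3724 and 22077. Days 2 and 9 were alike, days 6 and 12 were alike and 1.86-fold and 1.82-fold above day 2, and day 15 was 5.93-fold above day 12. Pdk1 encodes a kinase that shuts pyruvate dehydrogenase and so limits the oxidation of pyruvate in mitochondria. By its brightest probe set, Pdk1 had 440.3, 681, 466, 595 and 2754. Day 15 was 4.63-fold above day 12 by that probe set. Another had 197, 510, 211, 487 and 1289, with days 6 and 12 above days 2 and 9, and its day 15 was 2.65-fold above day 12. A further one had 335, 288, 248, 178 and 1214, a steady decline to day 12 before a 6.84-fold higher day 15, and the dimmest was above the floor on day 15 alone, at least 3.32-fold above day 12. The 4 Pdk1 probe sets thus had a common direction over the last step and differed before it and in its size.

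The remaining genes act in growth control, at the cell surface and outside the cell. Car9, a carbonic anhydrase of the cell surface that helps to export acid, had 67.9, 11.3, 30.9, 118 and 693. It was below the floor on days 2, 6 and 9, and day 15 was 5.89-fold above day 12 and at least 9.49-fold above day 2. Ddit4, an inhibitor of the growth-promoting kinase complex mTORC1, had 896, 993, 716, 1111 and 2711, 2.44-fold higher at day 15 than at day 12. Its difference was the smallest of the 10 and ranked 255th among all genes measured. Vegfa, the main growth factor for blood vessels, had 538, 544, 452, 517 and 1552, nearly level over days 2 to 12 and 3.01-fold higher at day 15 than at day 12. The other Vegfa probe set had 296, 90.5, 304, 315 and 769.7, with a low value on day 6 that the brightest one did not show, and its day 15 was 2.44-fold above day 12.

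Adm, which encodes the vasodilator peptide adrenomedullin, was the member whose course lay farthest from the median course of the 10. Its intensities were 257, 905, 1594, 1557 and 5696, and 313, 1084, 1624, 1314 and 5224 by the other probe set. Day 6 was 3.52-fold above day 2, day 9 was 1.76-fold above day 6, day 12 was level with day 9, and day 15 was 3.66-fold above day 12. Both probe sets had much the same shape, and Adm was 22.2-fold and 16.7-fold higher at day 15 than at day 2. Pearson's r between its log2 course and the median course of the 10 genes was 0.80 over the 5 arrays, against 0.92 for Egln3 and between 0.98 and 1.00 for the other members. These values describe 5 shared arrays, each gene being part of the median, and carry no p.

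The steps between consecutive days were small and mixed until the last. On the log2 scale of floored intensity, the median of the 10 genes was 0.30 at day 6 against day 2, -0.49 at day 9 against day 6, 0.56 at day 12 against day 9 and 2.38 at day 15 against day 12, while the median of all genes measured lay between -0.01 and 0.03 at each step. By the brightest probe set and with no limit on size, day 9 was below both day 6 and day 12 in 8 of the 10 genes. That shape was found in 27% of all genes. Car9, at the floor on days 6 and 9, and Adm were the exceptions. Ndufa4l2 counted through a step of -0.05 to the floor. The other Vegfa probe set was 1.75 higher at day 9 than at day 6, and a dimmer Pdk1 probe set had day 12 below day 9. Counting differences of 2-fold or more, day 6 was above day 2 in 1 of 10 genes, Adm (10.2% of all genes), and below it in 1, Egln3 (5.7% of all genes). By the brightest probe set, day 9 was above day 6 in 0 of 10 and below it in 0, against 5.87% and 4.06% of all genes. Ndufa4l2, Car9 and Ankrd37 lay too near or under the floor on day 6 to count as lower. Egln3 went from 128 to 55.8, which counts as at least 1.75-fold, and a dimmer Pdk1 probe set fell 2.42-fold. Day 12 was above day 9 in 2 of 10, Ndufa4l2 and Egln3, both under the floor on day 9, against 1.72%. It was below day 9 in 0, against 1.51%. By the brightest probe set, the step from day 12 to day 15 was the largest in each of the 10 genes. In the other Vegfa probe set that step was 1.29, smaller in size than -1.71 at day 6 against day 2 and 1.75 at day 9 against day 6.

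**Figure D2:**
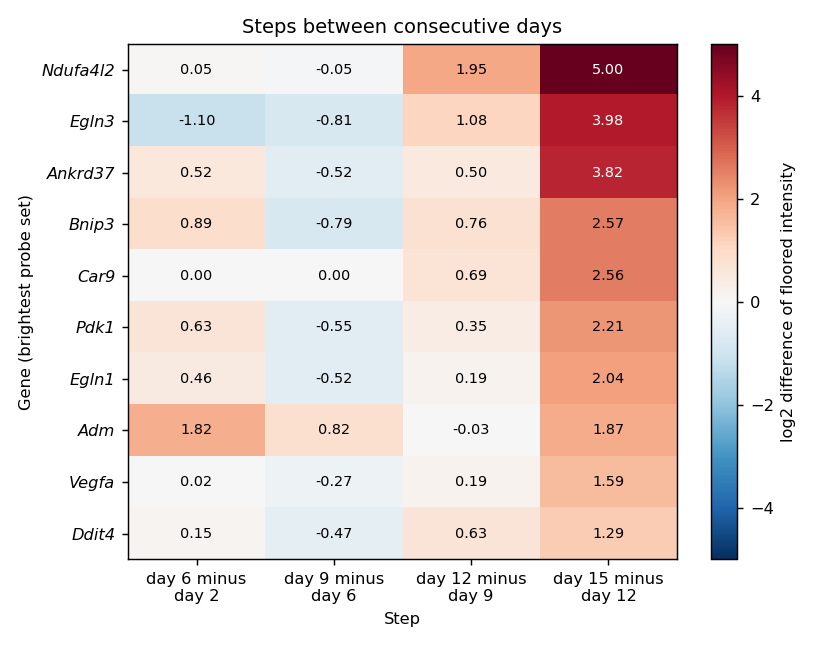
Log2 difference of floored intensity for each step between consecutive days (columns) in each of the 10 genes (rows, brightest probe set), later minus earlier day, red for higher and blue for lower. The right column is the highest in every row, from 1.29 for Ddit4 to 5.00 for Ndufa4l2, and 8 of 10 genes have a negative value at day 9 minus day 6.

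Day 15 exceeded every earlier day by a factor of 2 or more in 10 of 10 genes, and lay below one by that factor in 0. Of all genes measured, 16.2% were higher by that factor against day 2, 8.42% against day 6, 5% against day 9 and 4.23% against day 12. The shares of genes lower on day 15 by that factor were 11.6% against day 2, 6.16% against day 6, 4.05% against day 9 and 3.92% against day 12. These comparisons share the day 15 array and are not separate evidence. The median log2 difference was 3.19 against day 2, 2.60 against day 6, 2.90 against day 9 and 2.38 against day 12, and that of all genes lay between -0.03 and 0.00. With day 12 in place of day 15, 2 of 10 genes, Ndufa4l2 and Adm, exceeded day 2 by that factor, against 16.1% of all genes, and 0 lay below it, against 11.4%. Ankrd37, Ndufa4l2 and Car9 were under the floor on day 2 and could not lie below it. The median with day 12 was 0.47. No replicate gives the error of such a value, but probe sets of the same gene can be set against each other: the SD of a day 15 minus day 12 log2 difference, per probe set, was 0.43 over 3317 genes with 2 probe sets. That SD leaves out variation between dishes and arrays. In a bulk culture, more cells of a type and more RNA per cell cannot be told apart.

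The only test across arrays was a straight-line trend of log2 intensity on day. All 10 slopes were positive, and 0 of 10 passed a Benjamini-Hochberg adjusted p of 0.05 over all genes by limma, where 0.0542% of genes passed with a rising slope. Without adjustment, 5 of 10 had p under 0.05 by limma, against 14.4% of all genes with a rising slope. Those 5 include Ankrd37 and Car9, which passed the intensity filter through day 15 alone. The 10 genes were chosen with earlier results of these data known, so the count is a description and not a test of them as a set. That count of 5 was 1 without the day 15 array, 3 without day 6, 4 without day 2 and 7 without day 9 or without day 12. It was also 1 with a floor at the 60th percentile and 1 with no filter on intensity. A falling slope passed in 0 of 10 with and without adjustment, and in 12.7% of all genes without it by limma. Adm, which was higher from day 6 on, came closest, with a slope of 0.31 ± 0.04 log2 units per day (SE, 5 arrays) and a limma adjusted p of 0.0654. Egln3, lowest on day 9, had a limma adjusted p of 0.424. A straight line has no term for a course that is level over 4 arrays and high on the fifth.

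Other genes of the oxygen-sensing machinery differed little as a list between days 15 and 12. In this and the following lists a gene counts as higher or lower when days 15 and 12 differed by a factor of 2 or more. By that count 4.23% of all genes measured were higher and 3.92% lower. Of 16 measured genes of that machinery outside the 10, 1 was higher and 1 lower, and the median log2 difference was 0.08. Hif1a, the HIF-1 alpha gene, had 6627, 10029, 9412, 9615 and 9510 in order of day, level from day 6. Its partner Arnt was 1.02-fold lower at day 15 than at day 12, and Vhl 1.04-fold higher. Epas1, the HIF-2 alpha gene, went the other way, with 166, 365, 1212, 2382 and 568, 4.19-fold lower at day 15 than at day 12. Among the hydroxylases, Egln2, the relative of Egln1 and Egln3, had 983, 1214, 940.1, 854 and 835, and Hif1an, which encodes the asparagine hydroxylase that blunts HIF activity, was 1.29-fold higher at day 15 than at day 12 (-0.77 on the log2 scale by its lowest probe set). The higher gene was Siah2, a ubiquitin ligase gene, at 2.28-fold, which its other probe set put at 0.03 on the log2 scale. Arnt2 was 0.55 higher on that scale.

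**Figure D3:**
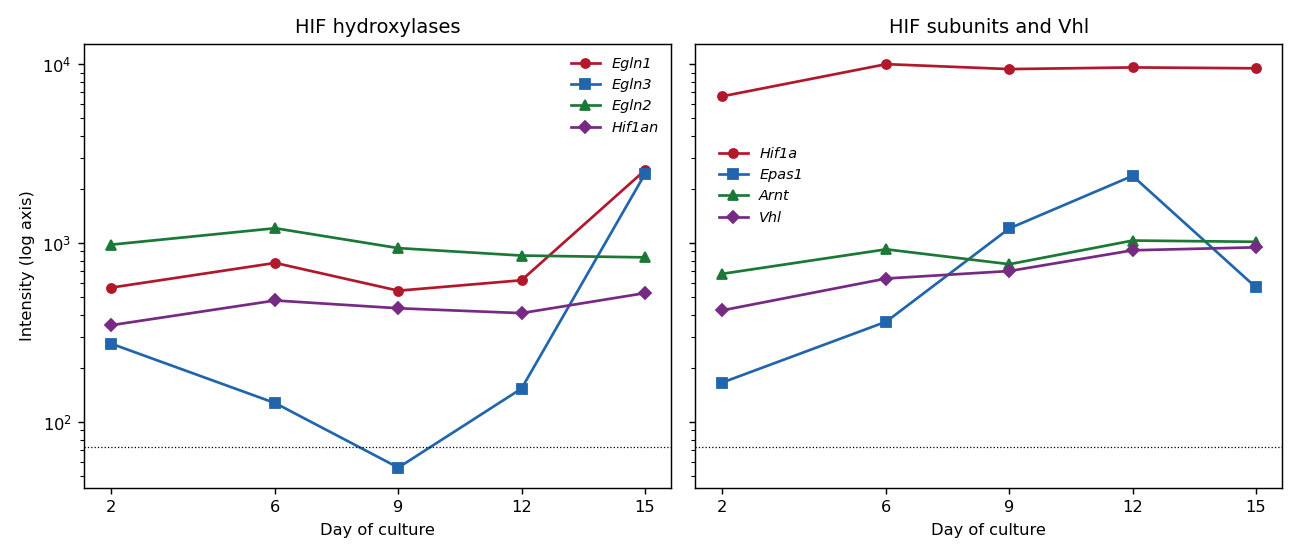
Intensity on a log axis by day of culture for the HIF hydroxylase genes (left) and for the HIF subunit genes with Vhl (right), brightest probe set, 1 array per point, floor dotted. Egln1 and Egln3 reach 2554 and 2427 on day 15 while Egln2 and Hif1an stay near their earlier values, and Epas1 has 568 on day 15 against 2382 on day 12.

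Many further genes known to respond to low oxygen had higher values at day 15 too. Of 34 measured hypoxia-induced genes outside glycolysis and outside the 10, 18 were higher and 0 lower, against 4.23% and 3.92% of all genes. The median log2 difference was 1.04. Day 15 stood 2-fold or more above each other day in 9 of the 34, against 1.15% of all genes. Of the 127 genes with that pattern, 101 lay outside the 10, this list and the glycolytic list below. The 18 higher genes were led by Stc2, a secreted glycoprotein gene, at 11.5-fold. Cox4i2, an oxygen-regulated isoform of a cytochrome c oxidase subunit, followed at 9.48-fold. Car12, a second acid-handling carbonic anhydrase of the cell surface, was 6.47-fold higher and the adenylate kinase gene Ak4 5.62-fold higher. Stc2 was only 0.64 higher on the log2 scale by its lowest probe set, and Car12 and Ak4 were at the floor on both days in theirs. Some genes of the list did not differ as the 10 did: Tfrc, the transferrin receptor gene, had 6359 on day 2 and between 1004 and 1281 afterwards, and Hmox1, heme oxygenase, was -0.41 at day 15 against day 12 on the log2 scale. Both were chosen for mention after their values were seen.

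Most glycolytic genes were also higher at day 15 than at day 12, and several had been lower at day 12 than at day 2. Of 18 measured, 14 were higher and 0 lower, against 4.23% and 3.92% of all genes, and the median log2 difference was 1.62. Day 12 lay below day 2 by a factor of 2 or more in 6 of these 18, and in 0 of the 10 genes, against 11.4% of all genes. Genes under the floor on day 2 could not count as lower, which held for Ankrd37, Ndufa4l2 and Car9 and for 2 of the 18. Egln3 was 1.78-fold lower on day 12 than on day 2, and a dimmer Pdk1 probe set 1.89-fold lower. Day 15 lay above day 2 by a factor of 2 or more in 7 of the 18, against 16.2% of all genes. Slc2a1, the main glucose transporter gene, had 8953, 4923, 1816, 1843 and 8098, so that day 15 was 1.11-fold below day 2. Pgk1 and Ldha, enzymes of the pathway, had day 15 values 3.15-fold and 2.39-fold above day 12, and 1.37-fold and 1.31-fold above day 2. The largest differences from day 12 were in Slc16a3, a lactate exporter gene, at 14.2-fold and Aldoc at 13.3-fold. Eno2 followed at 6.71-fold and the glucose transporter gene Slc2a3 at 5.92-fold. By their lowest probe sets, Aldoc and Slc2a3 were 1.27 and 1.10 higher on the log2 scale. The difference between the lists before day 15 was not tested.

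**Figure D4:**
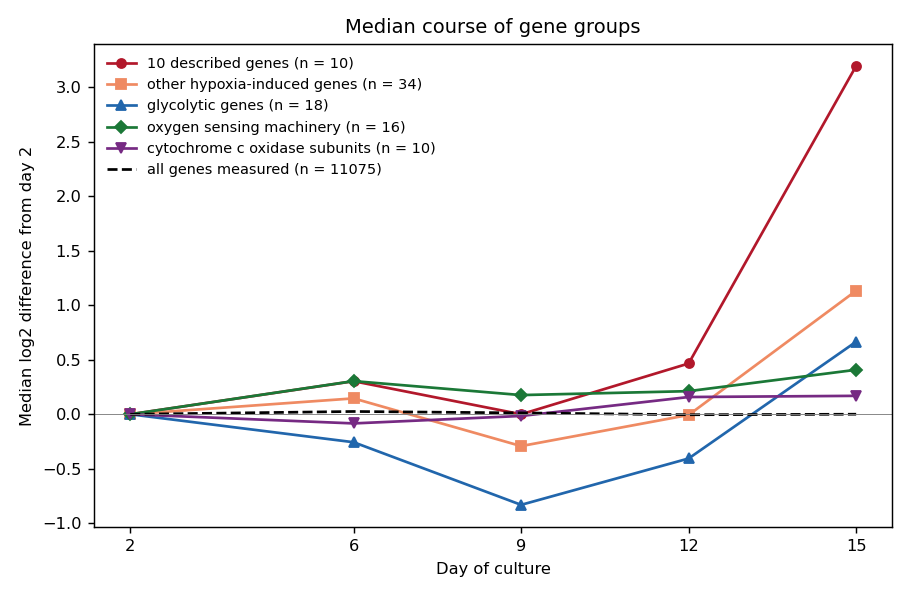
Median log2 difference of floored intensity from day 2 (vertical) by day of culture (horizontal) for the 10 genes, 4 related lists and all 11075 genes measured, 1 array per day. The 10 genes lie between 0.00 and 0.47 up to day 12 and at 3.19 on day 15, the glycolytic genes dip to -0.83 on day 9, and all genes stay near 0.

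Close relatives and partners of the 10 were compared over the same step. Over that step 4.23% of all genes were higher and 3.92% lower, so counts of 0 or 1 in lists this short lie near the share of all genes. Of 10 measured genes of the pyruvate dehydrogenase complex and its regulators, 0 counted as higher or lower, and the median log2 difference was 0.00. The other pyruvate dehydrogenase kinase genes Pdk2, Pdk3 and Pdk4 were 1.28-fold, 1.14-fold and 1.35-fold higher at day 15 than at day 12, against 4.63-fold for Pdk1. Pdhx and Dld, subunits of the complex, were 0.56 and 0.45 log2 units below day 12 at day 15. Of 10 measured cytochrome c oxidase subunit genes, 0 were higher or lower. Ndufa4, the relative of Ndufa4l2, had 9387, 12062, 12657, 13593 and 8566, which put it 1.59-fold lower at day 15 than at day 12, while Cox7c was 0.80 log2 units lower and Cox7a2 and Cox8a 0.32 and 0.20 higher. Among 13 mitophagy and autophagy genes, which act with or beside Bnip3, 0 were higher or lower by that count, with Gabarapl1 0.64 higher, Map1lc3a 0.45 higher, Ulk1 0.39 higher and Pink1 0.52 lower. Of 14 genes around mTORC1, the complex that Ddit4 restrains, 1 was higher: Eif4ebp1, a translation repressor gene, at 2.08-fold, with -0.03 on the log2 scale by another probe set. Rptor and Trib3 were each 0.72 higher and Sesn1 0.69 lower.

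Signalling partners of Vegfa and Adm varied in both directions over this step. Of 10 measured, 1 was higher and 2 were lower, and the median log2 difference was -0.36. Ramp1, a co-receptor gene for peptides of the calcitonin family, had 145, 67.4, 540, 1024 and 2883, 2.82-fold higher at day 15 than at day 12 but 0.03 on the log2 scale by its lowest probe set. Vegfc, a growth factor gene for lymphatic vessels, was 2.96-fold lower. Pgf, placental growth factor, was at least 3.16-fold lower, and Ramp3 1.00 log2 units higher as a bound from the floor, just under the threshold. Kdr, the main VEGF receptor of endothelium, lay below the intensity filter. Of 7 other carbonic anhydrase genes measured, 4 were higher and 2 lower. Besides Car12, Car6 was 6.65-fold and Car8 3.42-fold higher (at the floor on both days in another Car8 probe set), and Car3, abundant in fat, was 3.34-fold lower.

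The genes outside the 10 whose log2 course was most like their median course were Mxi1, Cxcl14, Prelid2, Grhpr, Ctla2a and Nrn1. Their Pearson r over the 5 arrays lay between 0.99 and 1.00, the highest among 5146 genes that ranged at least 2-fold over the days. The 5 points are the same arrays throughout, 1 of which stands apart, and no p was attached. Mxi1, a gene for a MYC antagonist and a member of the hypoxia-induced list above, had 484, 525, 448, 581 and 1398. Cxcl14, a chemokine gene, was 7.74-fold higher at day 15 than at day 12, while for Prelid2 this difference was 6.63-fold. Ctla2a was 5.20-fold, Grhpr, glyoxylate reductase, 2.71-fold and Nrn1, neuritin, 2.35-fold higher.

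Over the whole series, array medians lay between 106 and 118, and RNA integrity, read as the signal at the 3' end of Actb over that at its 5' end, was 1.26 on day 15, within the range of 1.17 to 1.27 of the other days. The same ratio for Gapdh was 0.798 on day 15, above the range of 0.616 to 0.779 of the other days (0.627 on day 12), and its part in the day 15 values was not tested. The chondrocyte label was checked on 10 marker genes, of which 0 were at the floor on any day. Col2a1, type II collagen, had 46505 on day 2, 7510 on day 12 and 17566 on day 15, and Acan, aggrecan, was 3.22-fold higher at day 15 than at day 12. These 2 of the 10 markers were higher and 0 lower. Against day 2, however, day 15 was lower by a factor of 2 or more in 7 of the 10 and higher in 2, with a median log2 difference of -1.43 and Acan 8.37-fold lower. Sox9 was 0.16 higher on the log2 scale (-1.06 by its lowest probe set), Hapln1 0.71 higher and Cnmd 0.78 lower. Adipocyte markers moved the other way from the 10 genes over the last step: 4 of 6 measured were lower and 0 higher, and the intensities of the 7 with a probe set summed to 34832 at day 15, against 64443 at day 12 and 2083 at day 2. Adipoq, adiponectin, was 2.77-fold lower, and Cd36, Cidec and Retn were also lower. Of 9 endothelial markers, all below the filter, 8 were under the floor on day 12 and 5 on day 15, with Pecam1 and Vwf under it on all days. Kdr, Esam, Cldn5 and Cdh5 were at least 2.29-fold, 1.29-fold, 1.28-fold and 1.18-fold higher at day 15 than at day 12. Another Cdh5 probe set gave 0.00 on the log2 scale, and Emcn was at least 1.24-fold lower. Summed intensity was 581 at day 15 and 305 at day 12 for these 9. It was 1072 at day 15 and 1088 at day 12 for 8 macrophage markers, of which 1 of 4 measured was lower, Lyz2 at 2.29-fold, while Cd68 and Csf1r were 0.66 and 0.33 higher and Adgre1 0.65 lower on the log2 scale. It was 1616 and 1606 on these days for 8 skeletal muscle markers, and 74.2 and 53.7 for 3 erythroid markers, under the floor on both days. Mylpf, Tnnt3 and Acta1, the 3 muscle markers measured, were 0.53, 0.30 and 0.28 log2 units below day 12. Among muscle markers below the filter, Des was at least 3.69-fold and Myod1 at least 1.53-fold higher at day 15. By their lowest probe sets, Des and Myod1 were 0.03 and 0.00 higher on the log2 scale. What part a shift in cell types had in the day 15 values was not tested.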

How the data were processed

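Single-colour oligonucleotide arrays were made from Trizol-extracted total RNA with a one-cycle biotin labelling kit, per the labels' protocols. The deposited table holds linear signal intensities, 1 per probe set and array. The submitters' processing notes name MAS5 without a version. Every array had a trimmed mean of 500.003 (2% cut from either tail), so a general rise or fall of most transcripts was scaled away. The number of arrays limits the precision.

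Gene symbols came from the platform's annotation, updated through RefSeq (assembly GRCm38.p6). Of 45101 probe sets, 34945 carried 1 symbol, 932 several and 9160 none, and 64 were controls. Intensities below 73.1, the 40th percentile of the whole table, were raised to this floor before log2. The brightest probe set stood for its gene, which was kept when its mean intensity reached the median of all probe sets, 105.93, which left 11075 of 18193 genes. All 10 members passed, 8 of them also without day 15, since Car9 and Ankrd37 passed through that day alone. A difference from a day at the floor is a bound, written "at least". Folds are ratios of floored intensities, counted at 2-fold with no test. Trends were fitted with limma 3.58.1 in R 4.3.3, after a check on simulated data. The moderated two-sided tests had 3 residual degrees of freedom and 2.83 prior ones, the latter from the spread of all genes. Other steps used Python 3.11.15, pandas 2.3.3, numpy 2.4.6 and matplotlib 3.10.9.

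The members and all gene lists were chosen with earlier results of these data known. From each list the text names up to 4 measured genes with the largest difference between days 15 and 12 and a set of best known genes. Some endothelial and skeletal muscle markers below the filter, with Tfrc and Hmox1, were named outside this rule. Whether the arrays share a cell isolate is not given in the sources used here. Alternatives were other normalizations, floors, a pseudocount, the mean over probe sets, other filters and trends without each array. P-values of trends measure only the scatter of these 5 arrays about a line, moderated by a spread shared over all genes. That scatter may be technical.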

Additional observations from a re-analysis of the deposited data

How the results depend on the processing

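The 10 genes kept day 15 at least 2-fold above days 2 and 12 under quantile normalization, median centring, a floor at the 20th or 60th percentile, a pseudocount, the mean over probe sets and no filter. A filter at the 70th percentile left 9 of them, all still at least 2-fold higher. The median log2 difference ranged from 2.04 to 2.53 against day 12 and from 2.65 to 3.29 against day 2. With day 12 in place of day 15, an alternative chosen after seeing the data, the count against day 2 was 2 and the median 0.47. The count of members with a rising trend, 0, became 1 (Adm by limma) with a pseudocount and with the filter at the 70th percentile, at adjusted p of 0.0434 and 0.0406 by limma. Under the other alternatives the lowest adjusted p of any member by limma lay between 0.0609 and 0.294. Over all genes, 6 trends passed, against 88 with the pseudocount, 204 with that filter, 13 with median centring, and 0 with the 60th percentile floor, no filter or any array left out. The cause was not tested. Without the day 15 array 7 of 10 slopes were positive. Of 158 single-gene differences 13 moved by more than the spread between probe sets, 0 of them in sign; most involve Ankrd37, Car9, Egln3 and Ndufa4l2, which lie near the floor before day 15. No paired analysis was possible because each day has 1 array and the results between days come from no test.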
